A study of Homo sapiens with 2 samples.

Results

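The 10 genes described here are ATF4, DDIT3, ATF3, TRIB3, CHAC1, NUPR1, PPP1R15A, SESN2, DDIT4 and CEBPB, stress-response genes regulated by or acting with the transcription factors ATF4 and CHOP (the product of DDIT3). They were taken by symbol from the 33538 genes counted in each library, by a rule that uses no measured value, although the list was drawn up with earlier results of these data known. Single-cell 3' RNA libraries had been made from UMUC3, an established human bladder carcinoma line, labelled as control or GANAB knockdown, after 14 days of orthotopic growth in the bladders of C57 nude mice kept under normal conditions. GANAB encodes the catalytic subunit of glucosidase II, which trims glucose from N-linked glycans on newly made proteins of the endoplasmic reticulum (ER). Each group was 1 library with 10000 cells loaded. The labels give neither the knockdown reagent nor the number of mice behind a library, and they name no clone.

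Cells were barcodes with at least 15000 unique molecular identifiers (UMIs) and at most 20% of UMIs from mitochondrial (MT-) genes, which left 4385 control and 2672 knockdown cells. Median depth was 44046 UMIs per control cell and 40933 per knockdown cell. Levels are given in CPM, the UMIs of a gene scaled to a fixed total of all UMIs in a set of cells. GANAB itself stood at 127 CPM in control and 42.3 CPM in knockdown cells, a log2 ratio of -1.58. Of 12 markers of the line, 10 reached 10 CPM in both libraries, among them LGALS1 and VIM, while 0 of 8 markers of differentiated urothelium, the lining of the bladder, did. Marker lists of other cell types summed to at most 27.1 CPM in either library. All genes counted are human, so these sums cannot show how much material of the mouse host the libraries held. The highest was the myeloid list, where CD68 alone made 26.7 of 27.1 CPM in control and 24.9 of 25.6 in knockdown cells. Fibroblast markers summed to 15.04 and 12.4 CPM. The libraries shared 4 cell barcodes, where their cell numbers alone would give 1.72.

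A second set of cells was taken by the long noncoding RNA TMEM132D-AS1, which was counted at 9.41 CPM in control and 131 CPM in knockdown cells. At least 2 of its UMIs were found in 241 control cells (5.50%) and 1942 knockdown cells (72.7%), called the TMEM132D-AS1 cells below. A further 4102 control and 616 knockdown cells had 0. Inside the control library the TMEM132D-AS1 cells were not low in GANAB, with 130 CPM against 126 CPM in cells with 0. Inside the knockdown library they had 38.1 CPM of GANAB against 55.3 CPM in cells with 0. The TMEM132D-AS1 cells were compared between libraries, and the 241 were also set against the 4102 within the control library. Fibroblast markers summed to 26.0 CPM in control and 13.7 CPM in knockdown TMEM132D-AS1 cells and CD68 to 41.8 and 25.04 CPM, and their part in the results for these cells was not tested. TMEM132D-AS1 overlaps the protein-coding gene TMEM132D by 3666 bases on the opposite strand.

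The integrated stress response starts with kinases that phosphorylate the translation factor eIF2. PERK senses unfolded protein in the ER, GCN2 uncharged tRNA, PKR double-stranded RNA and HRI heme deficiency. Phosphorylated eIF2 lowers general translation while ATF4 mRNA is translated more, so ATF4 activity is set largely after transcription. ATF4 raises genes of amino acid supply and a layer of further factors, with CHOP among them, and binds DNA as a dimer with CEBP family proteins. PPP1R15A closes the loop by directing a phosphatase to eIF2.

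Because ATF4 and other basic leucine zipper (bZIP) factors act through short DNA motifs, the 250 bases before the start of each gene were searched on both strands in RefSeq windows of GRCh38.p14. Windows were held for 9 of the 10 genes, 15 in all. NUPR1 was not matched. The CEBP-ATF response element TGATGNAA was found before ATF3 and CHAC1, the cyclic AMP response element TGACGTCA before PPP1R15A, and the AP-1 element TGANTCA before DDIT3. Of 35116 windows of equal length, 3.14%, 1.65% and 6.57% held these motifs, and the motifs did not overlap each other in the members. The 4 matches are shown 5′ to 3′ on the strand of the gene, with the motif in capitals and its neighbouring bases in lower case.
ATF3, chr1:212565205-212565234, plus strand: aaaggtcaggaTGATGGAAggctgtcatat
CHAC1, chr15:40953251-40953280, plus strand: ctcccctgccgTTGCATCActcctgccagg
PPP1R15A, chr19:48872352-48872381, plus strand: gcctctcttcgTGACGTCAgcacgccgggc
DDIT3, chr12:57520738-57520766, minus strand: gcgcgcgcgcaTGACTCAcccacctcctc
The matches begin 191, 209, 58 and 238 bases before the RefSeq start used, in that order, and the CHAC1 match lies on the reverse strand, so it reads TTGCATCA here. The CHAC1 and DDIT3 matches fall inside the longer GENCODE spans of these genes given with their values, and the ATF3 and PPP1R15A matches lie before them. A neighbouring DDIT3 start holds the identical AP-1 match. No match was found before any member for the ER stress element ERSE, the core TGACGTGG of the unfolded protein response element or the heat shock element, which 0.074%, 0.612% and 0.441% of windows held. The search took exact letters only, so a missing match does not show that near forms of a motif were absent. Both DDIT3 windows held a stretch that differs from the ERSE letters searched only in the last letter. A match is a description of letters in the window and not a measured binding site.

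Over all cells, NUPR1 and ATF3 were higher in the knockdown library, and none of the other measured members passed the rule of size. That rule asks for at least 10 CPM in either set of cells, a ratio of at least 1.5 either way and a 95% interval that excludes 1. Of the 10 members 8 were measured, with 2 higher and 0 lower, while 7.69% of all 7872 measured genes were higher and 10.4% lower. The median log2 ratio was 0.16 over the 8 measured members and -0.07 over all measured genes. With 1 library per group no test across samples can be made, so the intervals cover counting error only and the differences are between 2 libraries.

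Within TMEM132D-AS1 cells 3 members were higher and 0 lower of 8 measured, against 3.58% and 4.59% of 7720 genes. These were NUPR1, ATF3 and DDIT4, the last at 1.501-fold, right at the limit of the rule. The median log2 ratio was 0.08 over the 8 measured members and -0.09 over all measured genes.

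**Figure D1:**
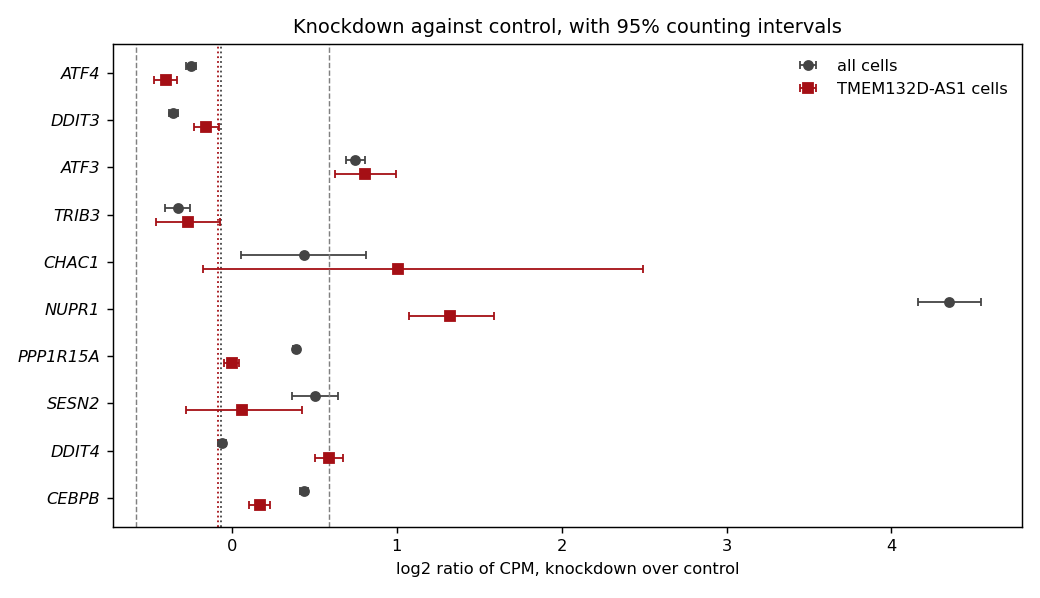
Log2 ratio of CPM, knockdown over control, for each of the 10 genes, with points for all cells (dark circles) and for TMEM132D-AS1 cells (red squares) and bars for the 95% counting interval. Dashed lines mark 1.5-fold either way and dotted lines the median of all measured genes. NUPR1 lies at 4.35 over all cells and 1.32 within TMEM132D-AS1 cells, ATF3 at 0.75 and 0.81, and DDIT4 moves from -0.06 to 0.59.

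ATF4 (chr22:39519695-39522685, plus strand, GRCh38, like the gene positions that follow) is the central activator of the response. Its level was 129 CPM in control and 109 CPM in knockdown cells, a log2 ratio of -0.25 (95% interval -0.28 to -0.22), short of 1.5-fold. The same side was seen in TMEM132D-AS1 cells, with 147 and 111 CPM (log2 ratio -0.40), and in cells with 0 UMIs of that RNA, with 128 and 101 CPM. Both control sets thus lay above both knockdown sets. After every cell was thinned to 15000 UMIs, an ATF4 UMI was found in 81.2% of control and 76.4% of knockdown cells. Without thinning the shares were 96.9% and 93.5%.

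DDIT3 (chr12:57516588-57521737, minus strand) encodes CHOP, the factor tied to cell death in prolonged ER stress. It stood at 145 CPM in control and 113 CPM in knockdown cells, a log2 ratio of -0.36 (95% interval -0.38 to -0.33). In TMEM132D-AS1 cells the values were 119 and 107 CPM, and in cells with 0 they were 147 and 121 CPM. None of these 3 differences reached 1.5-fold. A single knockdown cell held 423 DDIT3 UMIs, 2.82% of the library's. The gene shares 2769 bases of its span with AC022506.1 on the same strand and shorter stretches with MARS and MBD6 on the other, and no source used here says whether counting followed the strand, so its level is uncertain by an unknown amount in both libraries.

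ATF3 (chr1:212565334-212620777, plus strand) is a bZIP factor induced by many stresses and by growth signals. Its level was 22.2 CPM in control and 37.3 CPM in knockdown cells, a log2 ratio of 0.75 (95% interval 0.69 to 0.80). In TMEM132D-AS1 cells it was 19.1 and 33.4 CPM, a log2 ratio of 0.81 (95% interval 0.62 to 0.99), and in cells with 0 it was 22.5 and 47.3 CPM, a log2 ratio of 1.07. Both knockdown sets were therefore above both control sets. The share of cells with an ATF3 UMI at equal depth hardly followed, at 19.0% and 21.7%, so the higher sum came with more UMIs per positive cell. In barcodes with at most 100 UMIs, which hold free RNA, ATF3 stood at 33.5 CPM in control and 89.9 CPM in knockdown, above its level in the cells of each library. A list of immediate early and heat shock genes, which tissue dissociation also induces, had 7 of 14 measured genes higher in the knockdown library and 3 lower. Of all genes 7.69% were higher and 10.4% lower. Within TMEM132D-AS1 cells 2 of 14 list genes were higher and 1 lower, beside 3.58% and 4.59% of all genes. The part of the list genes in the ATF3 difference was not tested. When TMEM132D-AS1 cells were taken after thinning, which left 145 control and 1419 knockdown cells, the log2 ratio of ATF3 was 0.55 and missed the rule.

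CEBPB (chr20:50190734-50192689, plus strand), a dimer partner of ATF4 and CHOP, stood at 134 CPM in control and 181 CPM in knockdown cells. Its log2 ratio of 0.44 (95% interval 0.41 to 0.46) was short of 1.5-fold. In TMEM132D-AS1 cells the values were 161 and 181 CPM, a log2 ratio of 0.17. The antisense gene CEBPB-AS1 overlaps it by 765 bases, and reads from the pair could not be told apart without a strand rule.

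NUPR1 (chr16:28532708-28539174) encodes a small nuclear protein induced by ATF4 and by many kinds of stress. The control library held 244 of its UMIs and the knockdown library 3083, or 1.14 and 23.2 CPM. This 20.4-fold difference (log2 ratio 4.35, 95% interval 4.16 to 4.54) ranked 8 of 7872 measured genes from the highest. At equal depth a NUPR1 UMI was found in 1.46% of the control library's cells and 21.2% of the knockdown library's, with Clopper-Pearson 95% intervals of 1.13% to 1.86% and 19.6% to 22.8%. Without thinning the shares were 2.74% and 33.8%. Free RNA held 2.77 CPM in control and 30.3 CPM in knockdown, and the part of free RNA in these shares was not tested.

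The 4 sets of cells with 0 or at least 2 TMEM132D-AS1 UMIs formed an order for NUPR1. Control cells with 0 TMEM132D-AS1 UMIs were lowest at 0.539 CPM (95% interval 0.442 to 0.651), and control TMEM132D-AS1 cells followed at 9.80 CPM (8.21 to 11.6). Knockdown cells with 0 lay at 17.8 CPM (16.3 to 19.3) and knockdown TMEM132D-AS1 cells were highest at 24.5 CPM (23.6 to 25.5). None of these counting intervals overlapped. At equal depth a NUPR1 UMI was seen in 0.902%, 10.8%, 15.9% and 22.8% of these cells. Cells with exactly 1 TMEM132D-AS1 UMI were left out of this order and did not follow it. The 114 such knockdown cells had 32.6 CPM (27.4 to 38.5), above all 4 sets, and the 42 such control cells 1.55 CPM (0.319 to 4.53). Within the control library the TMEM132D-AS1 cells thus had 18.2-fold the NUPR1 level of the other cells (log2 4.18), though both values were under 10 CPM and outside the rule. Between libraries the ratio was 33.0-fold in cells with 0 and 2.504-fold in TMEM132D-AS1 cells (log2 ratio 1.32, 95% interval 1.07 to 1.59).

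One control TMEM132D-AS1 cell held 54 NUPR1 UMIs, 22.1% of all those in the control library and 40.3% of those in these 241 cells. Without it the level of the control TMEM132D-AS1 cells was 5.87 CPM, still above the 0.539 CPM of control cells with 0. Without that cell and the knockdown cell with the most, the TMEM132D-AS1 cells had 5.87 and 24.2 CPM, a log2 ratio of 2.04. Leaving out the top 1% of cells by NUPR1 in each library gave 4.65 and 20.7 CPM (2.15). In TMEM132D-AS1 cells with no UMI of the proliferation genes TOP2A or MKI67 the log2 ratio was 0.65, still past the rule.

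TRIB3 (chr20:362835-397559), a pseudokinase and CHOP target that restrains the response, stood at 19.6 CPM in control and 15.6 CPM in knockdown cells, a log2 ratio of -0.33 (95% interval -0.41 to -0.25). The values within TMEM132D-AS1 cells were 18.9 and 15.6 CPM. A UMI was found in 23.8% of control and 18.3% of knockdown cells at equal depth. Its levels differed by less than 1.5-fold in both sets of cells.

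CHAC1 (chr15:40952962-40956519) and SESN2 (chr1:28259527-28282491) were under 10 CPM in both libraries and so were not measured by the rule. CHAC1, a glutathione-degrading enzyme often used as a readout of ATF4, had 130 control and 109 knockdown UMIs, or 0.607 and 0.821 CPM. SESN2, a leucine-sensing inhibitor of the growth kinase mTORC1, lay at 4.10 and 5.82 CPM, a log2 ratio of 0.50. In TMEM132D-AS1 cells SESN2 stood at 5.70 and 5.96 CPM. Only 1.03% of control and 1.27% of knockdown cells had a CHAC1 UMI at equal depth, with overlapping intervals.

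PPP1R15A (chr19:48872392-48876057), also called GADD34, is the phosphatase subunit that reverses eIF2 phosphorylation. Its level was 243 CPM in control and 318 CPM in knockdown cells, a log2 ratio of 0.39, short of 1.5-fold. Inside the TMEM132D-AS1 cells both libraries had 316 CPM. Control cells with 0 stood apart at 237 CPM, while knockdown cells with 0 had 325 CPM. The difference between libraries was thus carried by control cells without TMEM132D-AS1.

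DDIT4 (chr10:72273920-72276036), or REDD1, restrains mTORC1 in hypoxia, energy stress and glucocorticoid signalling. It differed little between whole libraries, with 143 CPM in control and 137 CPM in knockdown cells. Control TMEM132D-AS1 cells were the low set at 91.1 CPM (95% interval 86.1 to 96.3), against 147 CPM in control cells with 0, and the 2 knockdown sets had 137 and 139 CPM. DDIT4 was the 1 member of 7 measured that was lower in control TMEM132D-AS1 cells than in other control cells (log2 ratio -0.69), where 4.47% of 7748 genes were lower and 4.65% higher. At equal depth 50.6% of control and 61.0% of knockdown TMEM132D-AS1 cells had a DDIT4 UMI. The 1.501-fold difference between libraries in these cells was lost under 8 of 18 other settings, among them totals without MT- genes, an average in which each cell counted equally (log2 ratio 0.44) and cells with no TOP2A or MKI67 UMI (0.29). An antisense gene, DDIT4-AS1, overlaps it by 1066 bases.

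The comparison was also made in cells with 0 TMEM132D-AS1 UMIs, which belong to the same 2 libraries. GANAB stood at 126 CPM in control and 55.3 CPM in knockdown cells with 0. This knockdown value was above the 38.1 CPM of knockdown TMEM132D-AS1 cells, and the part of GANAB level in the results was not tested. ATF3 and NUPR1 were again the 2 members higher of 8 measured, with 0 lower, where 7.46% of 7867 genes were higher and 8.53% lower. Free RNA that carries TMEM132D-AS1, at 8.53 CPM in control and 110 CPM in knockdown, bears on which cells count as marked, and its part was not tested.

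**Figure D2:**
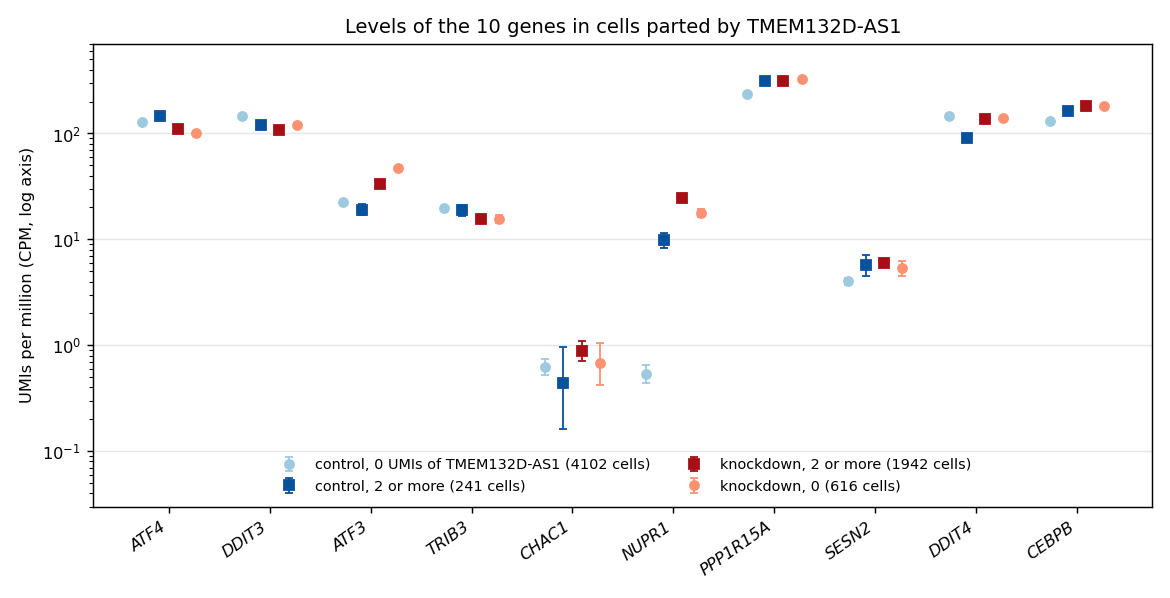
Level in CPM on a log axis for the 10 genes in 4 sets of cells, with bars for the exact Poisson 95% interval, which covers counting error only. NUPR1 spans 0.539 to 24.5 CPM over the sets, while PPP1R15A keeps within 237 to 325 and DDIT4 is low, at 91.1 CPM, in control TMEM132D-AS1 cells alone. Heights should not be compared between genes, since 3' counting depends on the gene.

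The members differed in how evenly cells shared them. Variance over mean of thinned counts is 1 for pure counting noise. For DDIT3 it was 8.74 in control and 9.90 in knockdown cells, and 1.01% and 1.25% of measured genes exceeded these values. Single cells weigh on this measure, as 1 knockdown cell had 113 DDIT3 UMIs after thinning. It was 5.15 in knockdown TMEM132D-AS1 cells and 12.9 in knockdown cells with 0. Over all cells DDIT4 had 6.30 and 5.74, and PPP1R15A 5.33 and 7.65. ATF4 was spread more evenly at 1.54 and 1.42, though still above the median of 1.13 and 1.17 over all measured genes, with 13.2% and 21.7% of genes exceeding it. The 5% of cells richest in DDIT3 held 37.7% of its control and 38.8% of its knockdown UMIs, and for ATF4 the same share was 17.1% and 17.4%. The mRNA of the upstream factor was thus less concentrated in few cells than that of its target DDIT3.

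ATF3 changed most between libraries in this respect, from a variance over mean of 2.36 in control to 5.20 in knockdown cells. This measure can rise with the level of a gene, and the genes set beside the members were not matched by level. The mean thinned count of ATF3 was 0.316 in control and 0.579 in knockdown cells, and the part of level was not tested. NUPR1 had 4.04 and 3.81 and CEBPB 3.56 and 3.89. In control cells NUPR1 had 1.40 among cells with 0 TMEM132D-AS1 UMIs and 6.13 among TMEM132D-AS1 cells, where 1 cell held 40.3% of its UMIs. TRIB3 lay at 1.09 in control cells, so near counting noise, and at 1.66 in knockdown cells.

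Cells of each library were then parted by other programmes, always on thinned counts and on genes outside the 10, to see where each member was high. Each such split set the 1 in 5 cells with the most UMIs of a list against the 1 in 5 with the fewest, which was 877 against 877 control cells and 534 against 534 knockdown cells. Splits were made in each library alone, so the comparison is between cells of 1 library and has counting intervals only.

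The immediate early and dissociation list also holds the heat shock genes HSPA1A and HSPA1B. These had 1263 and 610 CPM in control and 623 and 470 CPM in knockdown cells. Genes of the list gave wide splits for several members. Of 7 measured members 5 were higher and 0 lower in control cells rich in them, where 3.64% of all genes were higher and 2.08% lower. DDIT3 stood at 335 CPM against 33.0 CPM in control cells and at 251 against 28.4 CPM in knockdown cells. ATF3 had 47.7 against 3.67 CPM in control and 108 against 2.21 CPM in knockdown cells, and PPP1R15A 391 against 96.9 and 559 against 50.9 CPM. DDIT4 and CEBPB were the other two that were higher in both libraries. Among 8 measured members in knockdown cells 5 were higher and TRIB3 alone was lower, at 11.3 against 20.3 CPM, where 3.6% of genes were higher and 9.15% lower. ATF4 differed by log2 0.28 and 0.19, under the rule. Depth was similar on both sides, with medians of 40241 and 38778 UMIs in control and 39195.5 and 35786 in knockdown cells.

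Set knockdown against control, ATF3 had 108 against 47.7 CPM in the cells rich in these genes and 2.21 against 3.67 CPM in the poor. NUPR1 had 27.3 against 1.26 CPM in the rich and 38.8 against 1.13 CPM in the poor cells. Each library was parted at its own limits, and different genes weighed most in its sum. HSPA1A had 623 against 1263 CPM and DUSP1 1122 against 480 CPM. Rich cells of the 2 libraries therefore need not be alike, and the part of these genes in the ATF3 difference was not tested.

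A second split used ER chaperones and other genes of the IRE1 and ATF6 arms, the branches of the unfolded protein response that do not act through eIF2. In control cells DDIT3 (316 against 60.5 CPM) and ATF3 (39.3 against 13.4 CPM) were higher and 0 members lower, beside 11.3% and 1.24% of all genes. In knockdown cells DDIT3 (211 against 69.6 CPM), ATF3 (57.4 against 22.4 CPM), PPP1R15A (397 against 240.2 CPM) and CEBPB (227 against 143 CPM) were higher and NUPR1 (10.1 against 33.9 CPM) lower, beside 22.1% and 2.21%. Cells rich in chaperones were also deeper, with medians of 51239 against 33921 UMIs in control and 53286 against 34004.5 in knockdown cells, and the part of depth was not tested. ATF4 and TRIB3 did not pass the rule in either library.

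Genes of amino acid synthesis and import, classical ATF4 targets, parted the members in another way. In control cells 0 of 7 measured members were higher or lower, beside 6.76% and 1.48% of genes. In knockdown cells 3 were higher and 1 lower, beside 16.2% and 4.15%. TRIB3 stood at 24.4 against 11.04 CPM, NUPR1 at 35.03 against 19.1 CPM and DDIT3 at 134 against 85.8 CPM, while ATF3 was the lower one at 29.2 against 45.8 CPM. CHAC1, under the minimum, had 1.61 against 0.454 CPM in knockdown cells and 0.484 against 0.879 CPM in control cells. ATF4 itself had 126 against 102 CPM and 149 against 126 CPM, short of 1.5-fold. Depth also differed here, with medians of 48319 and 36116.5 UMIs in knockdown cells.

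Splits by type I interferon genes and by proliferation parted NUPR1 and DDIT4. Cells rich in interferon genes had 42.8 against 12.0 CPM of NUPR1 in the knockdown library and 1.77 against 0.354 CPM in control, the latter under 10 CPM and so not measured. DDIT4 had 167 against 88.5 CPM and 239 against 103 CPM, and ATF3 58.4 against 24.6 and 32.9 against 17.9 CPM. In all, 3 measured members were higher and 0 lower in each library, the third in control cells being DDIT3 (233 against 115 CPM). Over all genes 7.95% were higher and 7.11% lower in control, and 13.8% and 11.2% in knockdown cells. Cells rich in interferon genes were shallower, with medians of 37526 against 50875 UMIs in control and 35824.5 against 47922 in knockdown cells, and the part of depth was not tested.

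Cycling cells, with at least 2 UMIs of TOP2A and MKI67 together, were lower in DDIT4 than cells with 0, at 86.3 against 196 CPM in control and 83.8 against 169 CPM in knockdown. DDIT3 was lower in control cycling cells (107 against 182 CPM), and ATF3 (26.5 against 42.9 CPM) and NUPR1 (5.99 against 34.2 CPM) in knockdown ones. This made 2 members lower and 0 higher in control, beside 4.96% and 11.8% of genes, and 3 lower and 0 higher in knockdown, beside 11.5% and 18.7%. Cycling cells were 1553 against 2242 in control and 615 against 1721 in knockdown, and they were deeper, with medians of 57945 against 37178.5 and 68564 against 36036 UMIs.

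**Figure D3:**
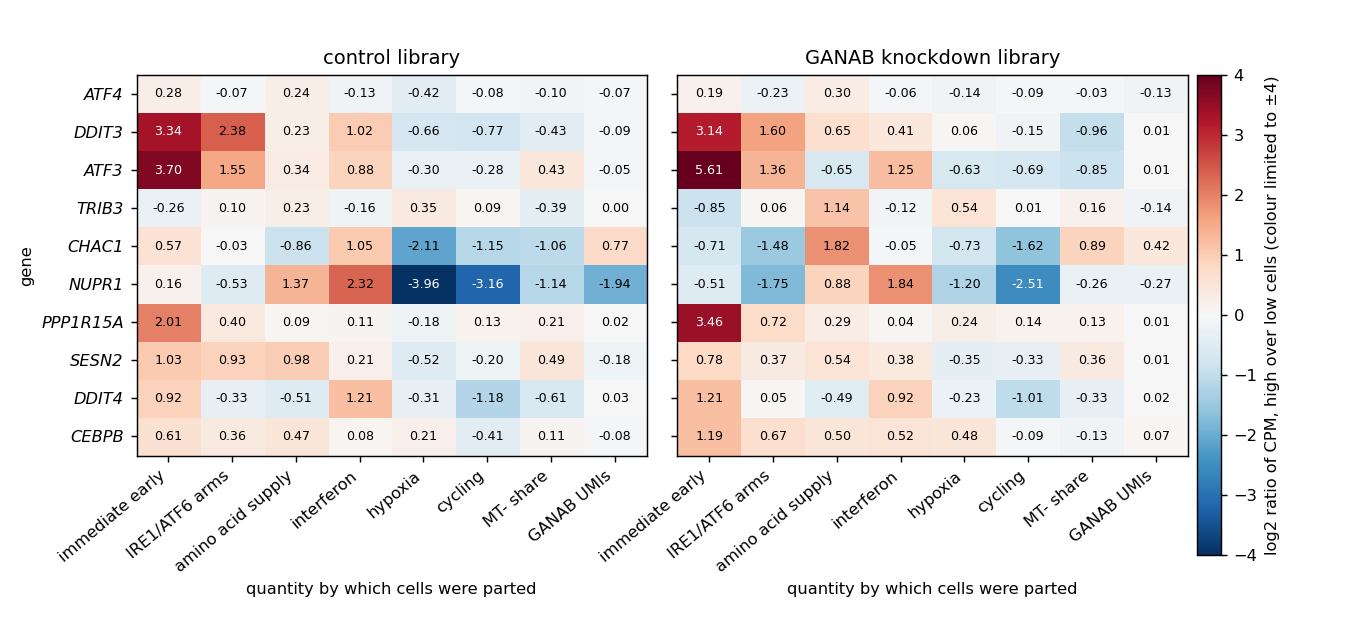
Log2 ratio of CPM, cells with more over cells with less of the quantity on the horizontal axis, for the 10 genes (rows) in the control (left) and knockdown (right) library. The colour is limited to 4 either way. NUPR1 in control cells, and CHAC1 and SESN2 in both libraries, were under 10 CPM and so not measured by the rule. DDIT3, ATF3 and PPP1R15A are red in the immediate early column of both panels (DDIT3 3.34 and 3.14), TRIB3 and CHAC1 are strongly red in the amino acid column of the knockdown panel (1.14 and 1.82) and not of the control panel (0.23 and -0.86), and NUPR1 and DDIT4 are blue in the cycling column.

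Pairs of members were only weakly related from cell to cell. Pearson r of log thinned UMIs had a median of 0.02 over the 45 pairs across 4385 control cells and 0.05 across 2672 knockdown cells, and these cells share a library, its depth and its free RNA. The highest pairs were ATF3 with DDIT3 in control (0.25) and CEBPB with DDIT3 in knockdown cells (0.23). At least 0.1 was reached by 7 and 11 pairs. Between ATF4 and DDIT3, regulator and target, r was 0.12 and 0.09. With sparse counts such values are descriptions and no finding.

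The genes nearest to each member were sought among 5205 genes in control and 5052 in knockdown cells. A highest value over so many genes cannot be weighed against the few pairs of members. Among genes of at least 20 CPM, DDIT3 in control cells was nearest to the ER chaperone HSPA5 (0.54), ER degradation gene HERPUD1 (0.53) and JUND (0.46). These genes had 0.40, 0.39 and 0.35 in knockdown cells. In knockdown cells it was nearest to the immediate early genes JUNB (0.45), NR4A1 (0.44) and DUSP1 (0.42), which had 0.42, 0.30 and 0.40 in control cells. The genes nearest to DDIT3 in 1 library were thus related to it in the other too. PPP1R15A was nearest to the heat shock genes DNAJB1 (0.47) and HSPA1B (0.42) in control and to HSPA1B (0.61) and DNAJB1 (0.60) in knockdown cells. HSPA1A and HSPA1B are near-identical copies whose reads the counting could have split. ATF3 was nearest to NR4A1 (0.37) and JUNB (0.35) in knockdown cells, and CEBPB to NFKBIA (0.36), an inhibitor of NF-kB.

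NUPR1 in knockdown cells was nearest to the ferritin gene FTH1 (0.31), the MHC class I gene B2M (0.30) and SELENOM (0.28). DDIT4 in control cells was nearest to PTMS (0.32). The gene nearest to ATF4 in control cells was ZFAS1 (0.24), a noncoding host of small nucleolar RNAs. TRIB3, CHAC1 and SESN2 had no gene at 0.2 or more in either library.

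**Figure D4:**
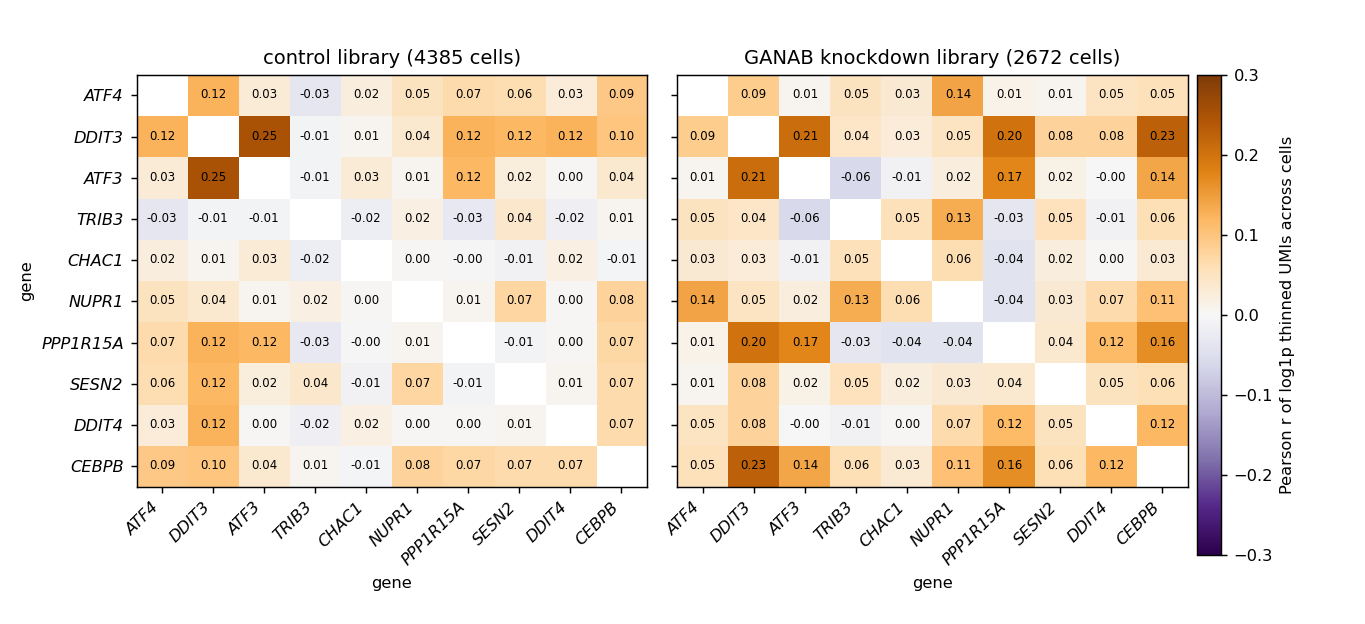
Pearson r between the 10 genes over cells of the control (left) and knockdown (right) library, on log1p of UMIs after thinning to 15000 per cell. Most squares are pale. The darker ones join DDIT3 with ATF3 (0.25 and 0.21) and, in knockdown cells, with CEBPB (0.23) and PPP1R15A (0.20).

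Other genes of the pathway were counted by the same rule. Of all measured genes 7.69% were higher and 10.4% lower over all cells. Within TMEM132D-AS1 cells these shares were 3.58% and 4.59%. The list counts below are to be read beside these shares. Upstream, 0 of 14 measured genes for eIF2, its kinases and its exchange factor were higher or lower over all cells, with EIF2S2 at 252 and 241 CPM and a median log2 ratio of -0.05. EIF2AK3, the gene of PERK, was under 10 CPM and so not among them. It had 4.16 CPM in control and 6.04 CPM in knockdown cells, and 3.66 and 6.24 CPM in TMEM132D-AS1 cells. Downstream, 2 of 12 measured genes of amino acid supply were higher, the serine synthesis enzymes PHGDH (20.04 to 44.3 CPM) and PSAT1 (25.4 to 40.1 CPM), and 1 was lower, PSPH (10.1 to 6.42 CPM) of the same pathway. The transporter SLC38A2 had 165 and 161 CPM. Of 13 tRNA charging and export genes 0 were higher or lower, with a median of -0.19.

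PHGDH and PSAT1 parted the control cells as NUPR1 did. In control TMEM132D-AS1 cells PHGDH stood at 55.1 CPM against 17.5 CPM in other control cells and PSAT1 at 39.3 against 24.4 CPM. In this comparison 4 of 12 measured amino acid genes were higher and 0 lower, beside 4.65% and 4.47% of all genes. Between libraries within TMEM132D-AS1 cells 0 of 11 were higher or lower, beside 3.58% and 4.59% of all genes, with a median log2 ratio of -0.24.

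Among 14 other measured targets of ATF4 and CHOP, 3 were higher and 2 lower over all cells, beside 7.69% and 10.4% of all genes. The apoptosis gene BBC3 had 10.0 CPM in control and 18.9 CPM in knockdown cells, and JDP2, a bZIP repressor, 5.88 and 11.4 CPM. The autophagy gene MAP1LC3B had 127 and 65.9 CPM, and HERPUD1 148 and 84.8 CPM. BBC3 and JDP2 were also the 2 higher genes within TMEM132D-AS1 cells, where 0 were lower. MAP1LC3B and HERPUD1 were lower in control TMEM132D-AS1 cells than in other control cells, at 76.3 against 131 CPM and 94.3 against 152 CPM.

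The IRE1 and ATF6 arms had the lowest median of the 10 lists, -0.49, with 0 of 14 measured genes higher and 5 lower over all cells. HSPA5 had 806 CPM in control and 466 CPM in knockdown cells, CALR 530.1 and 284 CPM, MANF 142 and 73.7 CPM and SDF2L1 117 and 74.6 CPM. HSP90B1, at 663.7 and 459.97 CPM, did not pass the rule. Within TMEM132D-AS1 cells 3 of 14 were lower, HSPA5 (711 and 421 CPM), CALR (427 and 270.4 CPM) and MANF (108 and 71.6 CPM). The median there was -0.18, above those of the tRNA list (-0.28) and the amino acid list (-0.24). The members most tied to these genes from cell to cell, DDIT3 and ATF3, thus stood on opposite sides between libraries, with DDIT3 at -0.36 and ATF3 at 0.75.

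Of 17 measured bZIP partners 5 were higher and 0 lower over all cells, with a median of 0.28. FOS had 233 and 566 CPM, JUNB 177 and 285 CPM and FOSL2 61.0 and 92.3 CPM, whereas JUN had 836 and 658 CPM. In TMEM132D-AS1 cells FOS alone passed, at 354 and 570.0 CPM. The immediate early and dissociation list included KLF4 (7.44 and 45.4 CPM), NR4A1 (41.8 and 162 CPM) and DUSP1 (480 and 1122 CPM) on the higher side. On its lower side was the heat shock gene HSPA1A (1263 and 623 CPM). Hypoxia genes, with which DDIT4 is often listed, were 1 higher and 1 lower of 9, LDHA being the lower with 452 and 229 CPM and ALDOA, whose reads may be shared with the overlapping AC093512.2, the higher. Of 8 measured p53 targets 1 was higher, BBC3. All 14 measured type I interferon genes were higher, with a median log2 ratio of 2.83 over all cells and 14 of 15 higher with 1.99 in TMEM132D-AS1 cells.

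**Figure D5:**
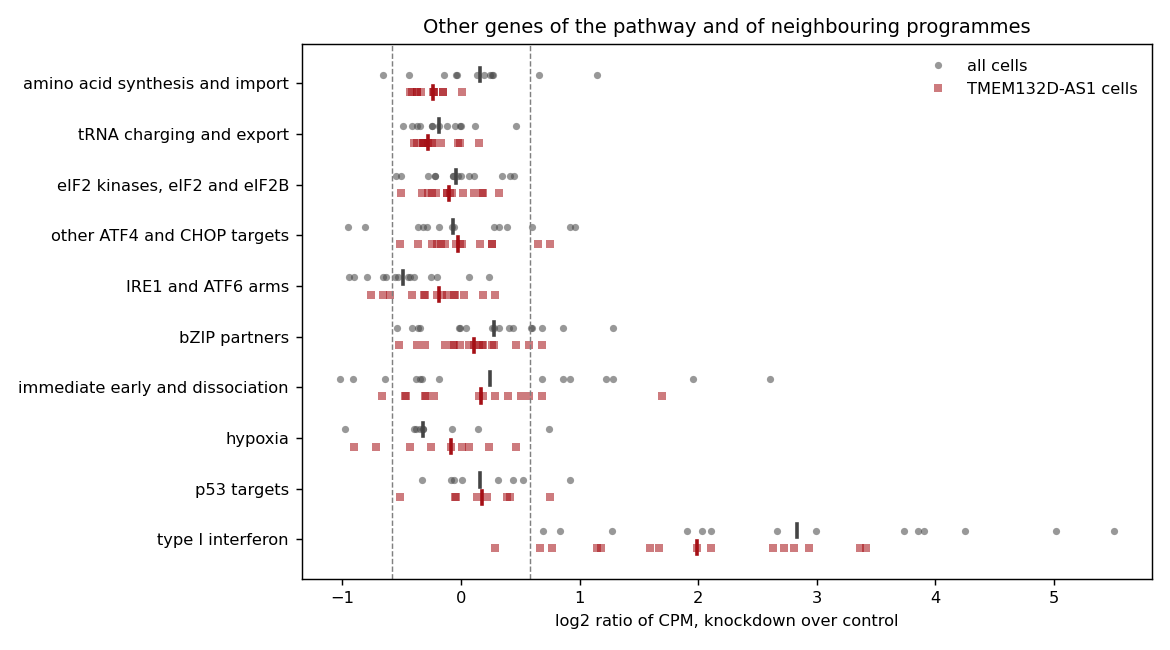
Log2 ratio of CPM, knockdown over control, for every measured gene of the 10 lists (rows), over all cells (dark circles) and in TMEM132D-AS1 cells (red squares). Upright bars mark list medians and dashed lines 1.5-fold either way. The IRE1 and ATF6 row sits to the left (median -0.49), the interferon row far to the right (2.83), and the eIF2 and tRNA rows lie between the dashed lines.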

How the data were processed

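The authors deposited unfiltered UMI counts of 2 libraries as matrices of genes by barcodes, made with Cell Ranger 3.1.0 on GRCh38 per the submitters' processing notes. All genes listed are human, and no source used here says whether mouse reads were removed. The libraries hold 239857346 (control) and 155064055 (knockdown) UMIs in total.

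Counts were summed over the cells of each set, with no doublet caller run, and divided by the set's UMIs (CPM). Single levels carry exact Poisson 95% intervals, ratios exact conditional binomial ones and shares Clopper-Pearson ones, all for counting error only. Cells were thinned to 15000 UMIs (seed 7) for shares, splits, variance and correlations. Software was Python 3.11.15, numpy 2.4.6, scipy 1.17.1, pandas 2.3.3 and edgeR 4.0.16, the last for TMM scaling alone. Gene positions came from GENCODE on GRCh38. On simulated Poisson counts for the comparison over all cells, the rule found 50 of 50 genes on their true side at every simulated fold (0.25, 0.5, 2, 4). The 95% intervals held the true fold for 95.44% of 7346 unchanged genes, but for 98%, 94%, 98% and 88% of genes at those folds. The simulation held counting error alone, with no spread between cells or libraries. It therefore checks the computation and cannot show how the rule or the intervals fare under such spread.

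The members, the TMEM132D-AS1 gate and the lists were chosen with earlier results of these data known. Named were all members, GANAB, TMEM132D-AS1, up to 4 list genes past the rule by ratio and the 2 with the highest level, and the 3 genes nearest to a member with r of at least 0.2. Named outside that rule, after their values were seen, were genes spelling out small counts and the amino acid genes of control cells. The split by amino acid genes was added later too. Up to 18 settings were tried per result.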

Additional observations from a re-analysis of the deposited data

How the results depend on the processing

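No paired analysis was possible because each group is 1 library and the labels give no replicate numbers, so no replicate could be left out either. Of the counts of genes past the rule and their alternatives, 145 stayed within 1.5 times of the value given, 23 did not, and 0 reversed. Other scalings (TMM, medians of ratios, totals without MT- genes) had log2 factors of -0.07 to 0.04, which are subtracted from the ratios. They changed no member's call over all cells, but totals without MT- genes alone ended the higher call of DDIT4 within TMEM132D-AS1 cells.

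Over all cells the 2 higher members became 0 with a minimum of 50 CPM, which leaves both unmeasured, and 1 at a ratio of at least 2. Within TMEM132D-AS1 cells the 3 higher members became 1 at 50 CPM, 1 at a ratio of 2 and 1 with the gate set after thinning. For control TMEM132D-AS1 cells against other control cells, the 0 higher members became 1, NUPR1, under 8 settings: without cells above 100000 UMIs, with the gate at 4 UMIs, with each cell counted equally, with a minimum of 1 CPM or none, in cells without TOP2A or MKI67 UMIs, without the top 10% by interferon UMIs, and without cells of 3 or more collagen UMIs. The 1 lower member, DDIT4, became 0 with the gate after thinning and 0 at a ratio of 2. In cells without TOP2A or MKI67 UMIs DDIT4 lost that call too (log2 ratio -0.58) and ATF3 gained it (-0.73).

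Of the pathway genes, 29 were higher over all cells, 18 at 50 CPM and 17 at a ratio of 2, and 12 were lower, 1 at a ratio of 2. In TMEM132D-AS1 cells 18 were higher, 10 at 50 CPM, and 6 were lower, 3 with the gate after thinning, 10 at 1 CPM, 11 with no minimum and 0 at a ratio of 2. A change of minimum or ratio alters the rule itself, and the cause of the other shifts was not tested. Leaving out the richest cells, chosen after seeing the data, is reported with NUPR1. CHAC1 and SESN2 lie under the minimum of 10 CPM, and with no minimum neither passed the rule over all cells.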

Other observations

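Splits by hypoxia genes, by MT- share and by GANAB itself gave further values, with counting intervals only. Cells rich in hypoxia genes were low in NUPR1, at 0.280 against 4.35 CPM in control and 12.2 against 27.9 CPM in knockdown cells. The control values were under 10 CPM and so not measured by the rule. TRIB3 lay on the other side, at 20.9 against 16.5 CPM and 17.2 against 11.9 CPM. DDIT4, a gene known for induction by hypoxia, had 131 against 163 CPM and 119 against 139 CPM. TRIB3 and DDIT4 did not pass the rule in either library. Members that passed it were all lower, DDIT3 in control cells (111 against 176 CPM), and ATF3 (28.5 against 44.2 CPM) and NUPR1 in knockdown cells. No share over all genes is given beside these splits. Cells rich in hypoxia genes were deeper, with medians of 54491 against 33827 UMIs in control and 62817.5 against 32752.5 in knockdown cells.

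Control cells in which GANAB was not seen after thinning had 2.88 CPM of NUPR1, against 0.753 CPM in cells with a GANAB UMI. Both values were under 10 CPM and so not measured by the rule, and 1 cell held 22.1% of the control library's NUPR1 UMIs. In knockdown cells the values were 25.2 and 20.9 CPM, short of 1.5-fold. ATF4, DDIT3 and PPP1R15A differed by at most 0.13 on the log2 scale in this split in either library. Cells with the highest MT- share had 76.5 CPM of DDIT3 against 149 CPM in those with the lowest in the knockdown library, and 131 against 177 CPM in control. ATF3 took different sides there, at 24.6 against 18.3 CPM in control and 24.3 against 43.9 CPM in knockdown cells. DDIT4 had 107 against 163 CPM in control and 115 against 145 CPM in knockdown cells. Lower by the rule in this split were DDIT4 in control cells, and DDIT3 and ATF3 in knockdown cells.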
